A study of Arabidopsis with 12 samples.

Results

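Transcription factors of the bHLH, bZIP, MYB, NAC and WRKY families were followed in Arabidopsis seedlings moved to a stiffer, water-deficient agar. The genes were all those whose single-gene probe set carries a symbol made of a family name and a number, with BHLH101 left out. The symbols chose the genes, but the rule and the omission of BHLH101 were set with earlier results of these data known. The rule found 30 probe sets of 38408 in the table, 1 for each of 30 genes among 16548 genes tested. They comprised 17 bZIP, 7 WRKY, 5 bHLH and 1 NAC genes. No MYB gene was found, so the MYB family is in the rule but not in the results. The gene table of RefSeq lists 303 genes with such symbols, 30 of them bZIP, 67 WRKY, 12 bHLH, 79 NAC and 115 MYB, and genes beyond the 30 were not analysed here.

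There were 4 groups of 3 arrays each, named here as in the labels: tori 35-7 under water deficit, tori 35-7 on control medium, Col-0 under water deficit and Col-0 on control medium. All seedlings were raised for 5 days at 22 °C, then kept for 72 h on 2% agar (water deficit) or 0.8% agar (control), and whole seedlings were taken at 8 days of age. Col-0 is the common laboratory accession of Arabidopsis thaliana. The labels give tori 35-7 as a genotype and describe it no further, while the series title refers to TOR, a protein kinase that couples growth to nutrients and energy. TOR itself was not analysed here, so no target gene checks the genotype labels.

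Each of these families is defined by a DNA-binding domain. The bHLH and bZIP proteins bind DNA as dimers through basic regions, whereas WRKY and NAC proteins carry domains that are largely confined to plants. Members of all 4 measured families are known as regulators of responses to drought, salt, nutrient shortage, infection or protein folding stress. Their RNA levels report only part of their activity, since several are also controlled by splicing, proteolysis or phosphorylation.

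Levels are the deposited values, taken as log2, so a difference of 1 means a 2-fold difference. They had array medians of 3.06 to 3.19. The arrays did not all look alike. The interquartile range of all probe sets was 2.68 on replicate 1 of tori 35-7 on control medium and 2.56 on replicate 1 of Col-0 under water deficit, against 2.91 to 3.08 on the others. The median of the 30 genes was likewise lowest on these arrays, at 3.93 and 3.81, against 3.99 to 4.33 elsewhere. Among markers of the tissue, 4 of 13 green-tissue genes were measured, with mean levels of 5.25 to 10.0, along with 2 of 11 root genes (EXPA7 and EXPA18, at 4.32 and 3.14), 3 of 5 guard cell lineage genes and 0 of 6 xylem genes. Log2 levels have no zero, so no marker was read as absent. In RNA of whole seedlings, fewer cells of a type and less RNA per cell cannot be told apart.

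The 30 genes had mean levels between 1.95 and 7.26 over the 12 arrays, with a median of 4.04, against 2.98 for all genes tested. Of the 30, 20 lay above that median of all genes, 12 above the 75th percentile (4.92) and 6 at or below the 25th (2.23). Within the bZIP family the probe set with the highest level was that of BZIP53 (6.81) and those with the lowest were bZIP43 and bZIP70 (1.95 each). Among the WRKY genes WRKY6 stood at 7.26 and WRKY41 at 2.13, and among the bHLH genes bHLH121 stood at 6.64 and BHLH92 at 2.07. NAC014 had 4.29. These orders describe probe sets, whose brightness also depends on the probes, and do not rank the genes by transcript number. The spread between replicates, as the residual SD of each gene, ran from 0.079 for bZIP48 to 0.47 for WRKY6, with a median of 0.191 against 0.200 for all genes.

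The first question was how water deficit changed these factors. Averaged over both genotypes, 2 of the 30 genes passed the threshold, an adjusted p under 0.05 in a limma fit to all 12 arrays with Benjamini-Hochberg adjustment over the 16548 genes. Both rose: BZIP34, a bZIP factor known from pollen development, and WRKY29, a factor of the immune MAP kinase cascade. None fell. Over all genes 3.70% passed in this comparison, 2.07% upward and 1.63% downward, so 2 of 30 (6.67%) is a small count to set beside that background. Within single genotypes no member passed, where 1.16% of all genes did in tori 35-7 and 1.23% in Col-0. At an unadjusted limma p under 0.05 there were 5 members in tori 35-7 (9.55% of all genes) and 6 in Col-0 (12.9%).

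BZIP34 (AT2G42380) had levels of 5.98, 6.17 and 6.28 in tori 35-7 under water deficit, against 5.42, 5.46 and 5.37 on control medium. In Col-0 it had 5.07, 6.17 and 6.18 under water deficit, against 4.99, 5.33 and 5.03 on control medium. The groups were apart in tori 35-7, and in Col-0 replicate 1 under water deficit lay among the controls. The rise averaged over genotypes was 0.71 ± 0.17 (SE), or 1.63-fold (limma adjusted p = 0.0278). In the separate genotypes it was 0.73 ± 0.23 in tori 35-7 (limma adjusted p = 0.226) and 0.69 ± 0.23 in Col-0 (limma adjusted p = 0.196). Without that Col-0 array the averaged rise was 0.89 (limma adjusted p = 6.22e-05), and both genotypes then passed, with 0.73 in tori 35-7 (limma adjusted p = 0.00657) and 1.06 in Col-0 (limma adjusted p = 0.00127). The averaged call was kept in 3 of 12 fits that left out 1 array, namely without this array, without Col-0 control replicate 2 and without tori 35-7 water deficit replicate 1. In the other fits, which left out each other array in turn, the adjusted p reached 0.0849 and the rise ran no lower than 0.61. It passed in 7 of 8 other settings of the processing, all but the one with all probe sets (limma adjusted p = 0.0718).

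BZIP61 (AT3G58120), the closest relative of BZIP34 in the bZIP family, had 6.89, 6.63 and 6.73 in tori 35-7 under water deficit, against 5.94, 6.30 and 6.01 on control medium. In Col-0 it had 5.10, 6.38 and 6.15 under water deficit, against 5.93, 5.64 and 5.96 on control medium. The 3 tori 35-7 arrays under water deficit were above all 9 others, and Col-0 replicate 1 under water deficit was below all others. The difference was 0.67 ± 0.25 in tori 35-7 (limma adjusted p = 0.342) and 0.04 ± 0.25 in Col-0 (limma adjusted p = 0.977), and neither passed. Without Col-0 water deficit replicate 1 the value in tori 35-7 was unchanged at 0.67, with a limma adjusted p of 0.0200. That array enters the common estimate of the spread, and the adjustment over all genes was also made anew without it. The part of each was not tested.

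WRKY29 (AT4G23550) had 5.39, 5.31 and 5.58 in tori 35-7 under water deficit, against 5.14, 4.99 and 4.95 on control medium. Its levels in Col-0 were 5.63, 5.38 and 5.33 under water deficit, against 5.11, 5.03 and 5.22 on control medium. All 6 arrays under water deficit were above all 6 on control medium, and 2.16% of all genes had their arrays under water deficit above the controls within each genotype. The averaged rise was 0.36 ± 0.09, or 1.28-fold (limma adjusted p = 0.0441), made of 0.40 ± 0.13 in tori 35-7 and 0.33 ± 0.13 in Col-0. The call stood near the threshold. It was kept in 4 of 12 fits that left out 1 array, those without Col-0 water deficit replicate 1, 2 or 3 or without tori 35-7 control replicate 1. In the other 8 the adjusted p reached 0.129, and the rise stayed between 0.32 and 0.39 throughout. It passed in 3 of 8 other settings of the processing.

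WRKY22 (AT4G01250), which acts beside WRKY29 in the same cascade, had the opposite sign. It had 4.57, 4.72 and 4.82 in tori 35-7 under water deficit, against 5.04, 5.23 and 4.76 on control medium. Col-0 gave 3.81, 4.32 and 4.25 under water deficit, against 4.64, 4.52 and 4.84 on control medium. The Col-0 groups were apart, and the tori 35-7 groups overlapped. The averaged difference of -0.42 ± 0.12 missed the threshold (limma adjusted p = 0.0655), as did -0.54 ± 0.17 in Col-0 (limma adjusted p = 0.147) and -0.31 ± 0.17 in tori 35-7 (limma adjusted p = 0.621). Without Col-0 water deficit replicate 2 the averaged difference passed at -0.47 (limma adjusted p = 0.0450). The difference between the changes of WRKY29 and WRKY22 was not tested.

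**Figure D1:**
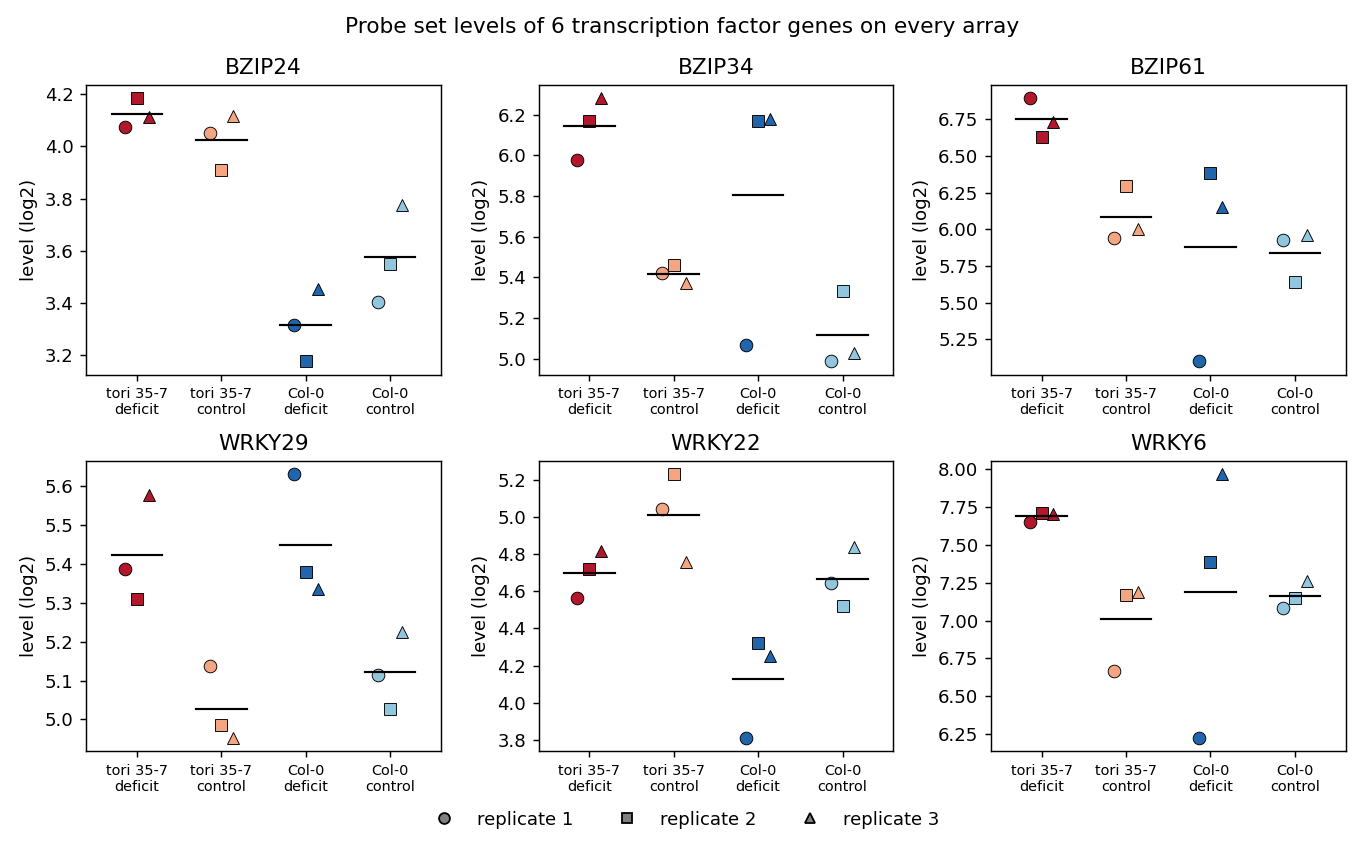
Levels (log2, vertical axis) of BZIP24, BZIP34, BZIP61, WRKY29, WRKY22 and WRKY6 on each of the 12 arrays, with the 4 groups along the horizontal axis, a symbol for each replicate and a bar for each group mean of 3 arrays. All 6 tori 35-7 arrays lie above all 6 Col-0 arrays for BZIP24, all 6 arrays under water deficit lie above the others for WRKY29, and replicate 1 of Col-0 under water deficit (circle) is the lowest array for BZIP61, WRKY22 and WRKY6.

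The other WRKY genes did not pass in any comparison over the 12 arrays. WRKY6 (AT1G62300), known with WRKY42 for control of phosphate transport, had 7.65, 7.71 and 7.70 in tori 35-7 under water deficit, against 6.67, 7.17 and 7.19 on control medium. In Col-0 the levels were 6.23, 7.38 and 7.96 under water deficit, against 7.08, 7.15 and 7.26 on control medium. The tori 35-7 groups were apart, while the Col-0 arrays under water deficit spread over more than the whole control range. The difference was 0.68 ± 0.31 in tori 35-7 (limma adjusted p = 0.492) and 0.03 ± 0.31 in Col-0. Without Col-0 water deficit replicate 1 the difference in tori 35-7 passed (limma adjusted p = 0.0458), and without tori 35-7 control replicate 1 it was 0.51 (limma adjusted p = 0.832). WRKY42 (AT4G04450) differed by 0.20 in tori 35-7 and by 0.25 in Col-0, each ± 0.22, and by -0.06 in Col-0 without Col-0 water deficit replicate 2. WRKY47 (AT4G01720) had 6.60, 6.79 and 6.88 in tori 35-7 under water deficit, against 6.80, 6.95 and 6.97 on control medium. The levels of Col-0 were 5.62, 6.31 and 6.57 under water deficit, against 6.69, 6.73 and 6.42 on control medium, and the groups overlapped in both genotypes. Its difference in Col-0 of -0.45 ± 0.20 was -0.18 without Col-0 water deficit replicate 1. WRKY20 (AT4G26640) differed by 0.28 ± 0.14 in tori 35-7 and 0.19 ± 0.14 in Col-0. WRKY41 (AT4G11070), known from seed dormancy, showed 0.02 and -0.02, with 95% intervals of -0.27 to 0.32 in tori 35-7 and -0.31 to 0.28 in Col-0.

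The bZIP factors of nutrient and energy shortage did not pass the test under water deficit. bZIP44 (AT1G75390), from the S1 group that responds to sugar and low energy, had 4.28, 4.31 and 4.55 in tori 35-7 under water deficit, against 4.27, 4.49 and 4.66 on control medium. Col-0 arrays had 3.92, 4.58 and 4.47 under water deficit, against 5.03, 5.03 and 4.71 on control medium. The Col-0 groups were apart and the tori 35-7 groups overlapped. The difference was -0.10 ± 0.18 in tori 35-7 and -0.60 ± 0.18 in Col-0, which did not pass (limma adjusted p = 0.129). The Col-0 value was -0.40 without Col-0 water deficit replicate 1. BZIP53 (AT3G62420), of the same group, differed by 0.22 ± 0.18 in tori 35-7 and 0.19 ± 0.18 in Col-0, or -0.05 in Col-0 without Col-0 water deficit replicate 2. These were the 2 measured of 9 low-energy bZIP genes listed.

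Of the zinc-related F group all 3 genes were measured. bZIP19 (AT4G35040), which with bZIP23 switches on the response to zinc deficiency, had 6.33, 6.48 and 6.36 in tori 35-7 under water deficit, against 6.55, 6.70 and 6.69 on control medium. The Col-0 values were 6.22, 6.79 and 6.47 under water deficit, against 6.81, 6.82 and 6.81 on control medium. Water deficit was below control in both genotypes without overlap, which 1.93% of all genes showed. The averaged difference of -0.29 ± 0.10 did not pass (limma adjusted p = 0.154), and it did at -0.36 without Col-0 water deficit replicate 2 (limma adjusted p = 0.0350). bZIP23 (AT2G16770) differed by 0.14 ± 0.16 in tori 35-7 and -0.25 ± 0.16 in Col-0. BZIP24, a regulator of the salt stress response, differed by 0.10 ± 0.13 in tori 35-7 and -0.26 ± 0.13 in Col-0.

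The bZIP regulators of the unfolded protein response, BZIP17 (AT2G40950), BZIP28 (AT3G10800) and BZIP60 (AT1G42990), did not pass either. Averaged over genotypes BZIP17 differed by -0.02 (95% interval -0.26 to 0.23), BZIP28 by 0.13 (-0.06 to 0.31) and BZIP60 by 0.14 (-0.10 to 0.38). BZIP17 and BZIP28 are held in the endoplasmic reticulum until cleaved and BZIP60 is activated by splicing of its RNA, steps that a gene-level probe set does not separate. BIP1, a chaperone they control and the sole listed target measured of 6, had an averaged difference of -0.02 ± 0.19. That average joined opposite signs, 0.26 ± 0.27 in tori 35-7 and -0.30 ± 0.27 in Col-0, and neither passed (limma adjusted p = 0.892 and 0.720). The other bZIP genes, bZIP42, bZIP43, bZIP48, bZIP52, bZIP58, bZIP70 and bZIP75, had averaged differences from -0.12 (bZIP43) to 0.28 (bZIP42), and none passed.

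The bHLH factors measured here included most of the known upstream activators of the iron deficiency response. bHLH34, bHLH104 and bHLH115, together with ILR3, form a subgroup that switches on iron uptake genes, and bHLH121 works with them. bHLH34 (AT3G23210) had 2.31, 2.15 and 2.34 in tori 35-7 under water deficit, against 2.45, 2.76 and 2.34 on control medium. Its levels in Col-0 were 2.70, 2.44 and 2.30 under water deficit, against 2.61, 2.71 and 2.75 on control medium. The groups overlapped in both genotypes, and the averaged difference of -0.23 ± 0.10 did not pass (limma adjusted p = 0.320). The 95% intervals of the averaged difference were -0.33 to 0.16 for bHLH104 (AT4G14410), -0.23 to 0.19 for bHLH115 (AT1G51070) and -0.11 to 0.41 for bHLH121 (AT3G19860). ILR3, named outside the rule, differed by 0.01 ± 0.10, so none of the 4 genes of the subgroup passed. BHLH92 (AT5G43650), known as induced by osmotic stress, was among the dimmest probe sets and differed by 0.08 ± 0.13 in tori 35-7 and -0.22 ± 0.13 in Col-0.

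Some genes downstream of these factors or related to them did move on the same arrays. BHLH101, a known target of that subgroup and itself a bHLH factor, averaged 5.07 ± 0.13 in tori 35-7 under water deficit and 3.03 ± 0.17 on control medium (SD, n = 3 each). In Col-0 it averaged 6.06 ± 0.34 under water deficit and 3.02 ± 0.16 on control medium. Its averaged rise was 2.54 ± 0.12 (limma adjusted p = 5.47e-08). Of 11 genes listed for the iron deficiency response 4 were measured, and 3 rose in both genotypes. These were BHLH101 and the loci AT1G47395 (2.01) and AT1G47400 (1.34 averaged over genotypes), while AT1G18910 did not pass. A list of bHLH121 and its relatives, which are not all known targets, held 7 genes, of which 6 were measured. Of these, 2 rose averaged over genotypes and in Col-0, and 0 passed in tori 35-7. PYE, a bHLH repressor of iron genes, gained 0.68 ± 0.13 averaged over genotypes (limma adjusted p = 0.00716) and NAI1, a bHLH factor needed for endoplasmic reticulum bodies, 0.40 ± 0.10 (limma adjusted p = 0.0312). PYE differed by 0.41 in tori 35-7 (limma adjusted p = 0.473) and 0.96 in Col-0 (limma adjusted p = 0.0175), and NAI1 by 0.18 in tori 35-7 (limma adjusted p = 0.799) and 0.62 in Col-0 (limma adjusted p = 0.0408). The difference between the genotypes in these responses passed for neither (limma adjusted p = 0.822 and 0.807). The lists were drawn up with earlier results of these data known, so they are not independent evidence of a direction.

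NAC014 (AT1G33060), the sole NAC gene measured, had 4.44, 4.45 and 4.63 in tori 35-7 under water deficit, against 3.81, 4.35 and 4.08 on control medium. Col-0 gave 4.53, 3.90 and 4.76 under water deficit, against 4.22, 4.15 and 4.13 on control medium. The tori 35-7 groups were apart and the Col-0 groups overlapped. The averaged difference of 0.33 ± 0.14 did not pass (limma adjusted p = 0.273), and it did at 0.45 without Col-0 water deficit replicate 2 (limma adjusted p = 0.0329).

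**Figure D2:**
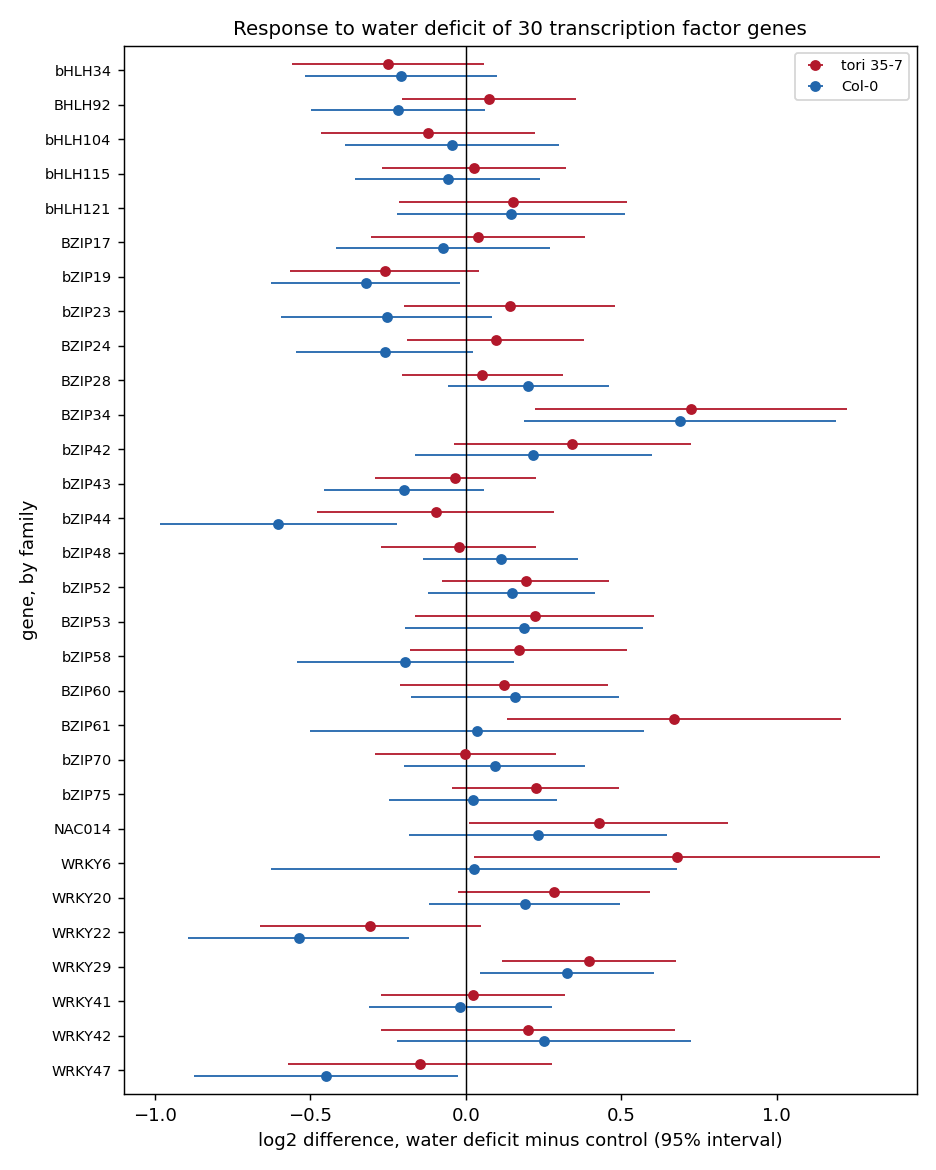
Log2 difference between water deficit and control (horizontal axis) for each of the 30 genes, ordered by family down the page, with points for tori 35-7 above points for Col-0 and bars for 95% limma intervals. BZIP34, at 0.73 in tori 35-7 and 0.69 in Col-0, and WRKY29, at 0.40 and 0.33, lie to the right of 0 in both genotypes, and the intervals of most genes cross 0.

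Seen by family, the median difference under water deficit in tori 35-7 was 0.20 for the 7 WRKY genes, 0.12 for the 17 bZIP genes and 0.03 for the 5 bHLH genes. In Col-0 the medians were 0.03, 0.04 and -0.06 in the same order of families. Over the 30 genes the median was 0.11 in tori 35-7, where all genes had 0.01, and 0.02 in Col-0, where all genes had 0.01. In tori 35-7 all 3 arrays under water deficit lay above all 3 controls for 11 of the 30 genes (36.7%), which 11.1% of all genes showed, and below them for 1 gene (3.33%), which 7.77% showed. The 11 were BZIP34, bZIP42, bZIP52, BZIP53, bZIP58, BZIP61, bZIP75, NAC014, WRKY6, WRKY20 and WRKY29, and none of them passed the test in this genotype. In Col-0 the counts were 3 above (7.26% of all genes) and 4 below (8.45%). These counts moved with single arrays. Without tori 35-7 control replicate 1 the count above in tori 35-7 was 13, where 16.8% of all genes did so, and without Col-0 water deficit replicate 1 the count above in Col-0 was 9 (30%), where 13.8% of all genes did so. Of the 4 measured green-tissue markers 2 rose under water deficit averaged over genotypes, LHCB4.1 by 0.50 and LHCB4.2 by 0.89 (limma adjusted p = 0.00963 and 0.000235), while RCA at -0.28 and PSAE-1 at 0.22 did not pass (limma adjusted p = 0.0913 and 0.409). The sum of the log2 levels of the 4 was 33.8 to 34.2 in tori 35-7 under water deficit and 31.9 to 32.2 on control medium, and in Col-0 it was 31.9 to 32.5 under water deficit and 31.1 to 31.6 on control medium. Of the 3 measured guard cell lineage genes, FMA rose by 0.66 ± 0.13 averaged over genotypes (limma adjusted p = 0.00935), and SPCH at -0.03 and MUTE at 0.26 did not pass (limma adjusted p = 0.983 and 0.290). The part of these markers in the results was not tested.

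The second question was how the factors differed between the genotypes. The clearest member was BZIP24 (AT3G51960), which was higher in tori 35-7 than in Col-0. It had 4.07, 4.19 and 4.11 in tori 35-7 under water deficit, against 3.32, 3.18 and 3.46 in Col-0 under water deficit. On control medium it had 4.05, 3.91 and 4.12 in tori 35-7, against 3.40, 3.55 and 3.78 in Col-0. All 6 tori 35-7 arrays were above all 6 Col-0 arrays, and 1.67% of all genes had tori 35-7 above Col-0 within each medium. The tori 35-7 level hardly moved with the medium, and its group SDs were 0.06 under water deficit and 0.11 on control medium, against 0.14 and 0.19 in Col-0.

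Averaged over both media, BZIP24 was higher in tori 35-7 by 0.63 ± 0.09, or 1.55-fold (limma adjusted p = 0.00276), and it was the sole member of the 30 to pass, where 2.88% of all genes did. This call was kept in all 12 fits that left out 1 array, with adjusted p-values up to 0.0117. Under water deficit the difference was 0.81 ± 0.13, or 1.75-fold (limma adjusted p = 0.0174), and again BZIP24 alone passed, where 0.822% of all genes did. Without tori 35-7 water deficit replicate 1, 2 or 3 this difference was 0.83, 0.78 or 0.81 and missed the threshold (limma adjusted p = 0.0554, 0.0828 and 0.0838), each time with 1 array fewer in the group. On control medium the difference was 0.45 ± 0.13 and did not pass (limma adjusted p = 0.191), and none of the 30 did, where 0.568% of all genes passed. With an unadjusted limma p under 0.05 there were 4 members on control medium (9.97% of all genes). The other F-group genes did not share the direction: averaged over media bZIP19 differed by -0.14 ± 0.10 and bZIP23 by -0.26 ± 0.11 (limma adjusted p = 0.599 and 0.284).

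WRKY22, with the values given above, came next. Under water deficit its 3 tori 35-7 arrays were above its 3 Col-0 arrays, while on control medium the groups overlapped. Averaged over media it differed by 0.46 ± 0.12, or 1.37-fold, just short of the threshold (limma adjusted p = 0.0528). It passed in 3 of 12 fits that left out 1 array, with 0.38 without Col-0 water deficit replicate 1 (limma adjusted p = 0.0483), 0.50 without Col-0 water deficit replicate 2 (limma adjusted p = 0.0386) and 0.52 without tori 35-7 control replicate 3 (limma adjusted p = 0.0441). WRKY47 was higher in all 6 tori 35-7 arrays than in the 3 Col-0 arrays of the same medium, with an averaged difference of 0.44 ± 0.14 (limma adjusted p = 0.116). Without Col-0 water deficit replicate 1 it was 0.30 (limma adjusted p = 0.0910), and it passed without Col-0 water deficit replicate 3 at 0.54 (limma adjusted p = 0.0403). WRKY29 showed -0.06 ± 0.09, with a 95% interval of -0.26 to 0.14.

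BZIP61 was apart under water deficit, by 0.87 ± 0.25 or 1.83-fold, which did not pass (limma adjusted p = 0.122). Leaving out Col-0 water deficit replicate 1 gave 0.48 (limma adjusted p = 0.146), and leaving out Col-0 water deficit replicate 2 gave 1.13, past the threshold (limma adjusted p = 0.0430). Averaged over media it was 0.56 ± 0.18 (limma adjusted p = 0.116), and 0.68 without that replicate 2 (limma adjusted p = 0.0389). BZIP34 differed by 0.32 ± 0.17 averaged over media (limma adjusted p = 0.388), and its difference of 0.34 under water deficit was -0.03 without Col-0 water deficit replicate 1. BZIP60 had 5.72, 5.81 and 5.82 in tori 35-7 under water deficit, against 5.73, 5.59 and 5.12 in Col-0 under water deficit. On control medium it had 5.77, 5.52 and 5.69 in tori 35-7, against 5.24, 5.50 and 5.23 in Col-0. The groups were apart on control medium and overlapped under water deficit. The averaged difference was 0.32 ± 0.11 (limma adjusted p = 0.150), and it passed without Col-0 water deficit replicate 1 at 0.38 (limma adjusted p = 0.0433). bZIP52, a group I factor, differed by 0.27 ± 0.09 (limma adjusted p = 0.129).

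**Figure D3:**
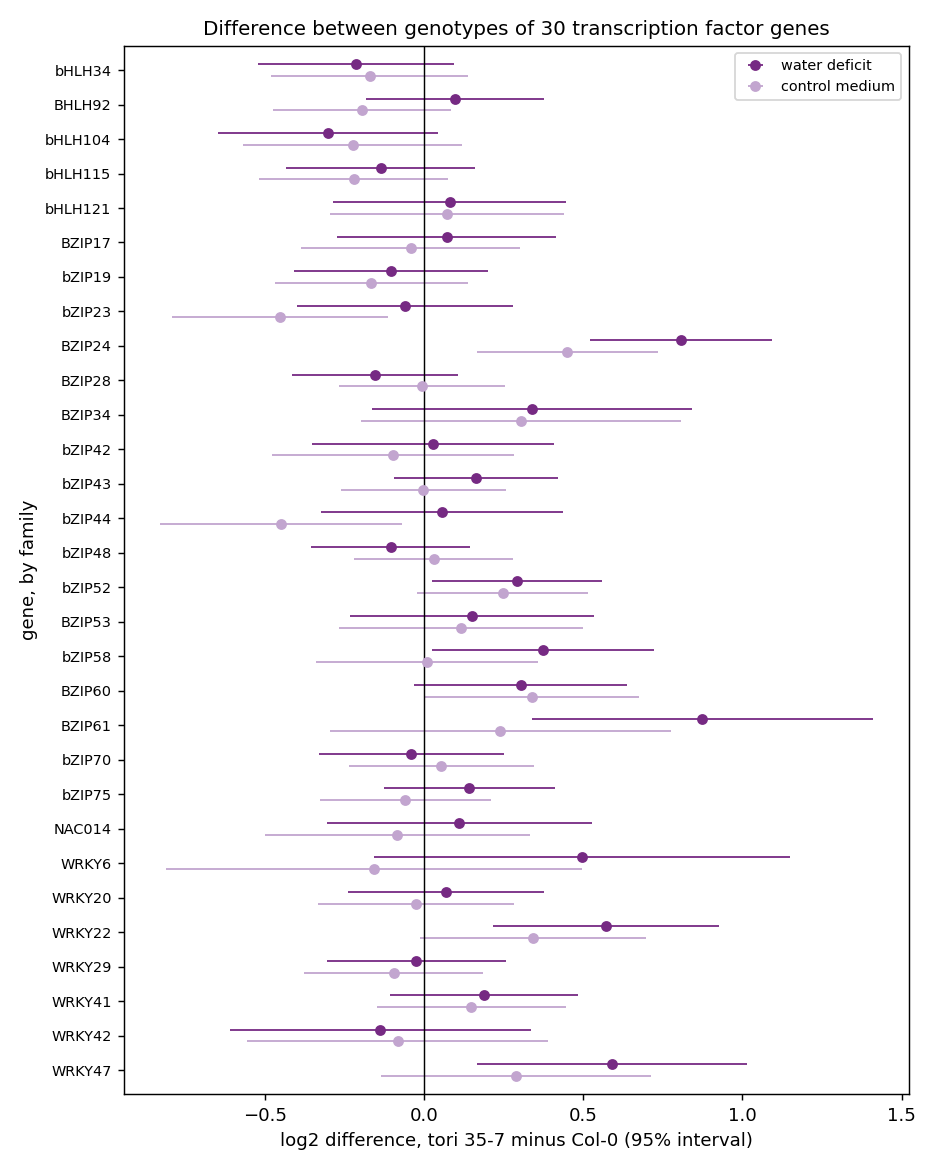
Log2 difference between tori 35-7 and Col-0 (horizontal axis) for each of the 30 genes, ordered by family down the page, with points for water deficit above points for control medium and bars for 95% limma intervals. BZIP24 lies to the right of 0 on both media, at 0.81 under water deficit and 0.45 on control medium. On control medium 4 of the 5 bHLH genes lie left of 0, where 48.5% of all genes were above 0.

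A few members lay lower in tori 35-7 on control medium. bZIP23 had 2.37, 2.71 and 2.44 in tori 35-7 on control medium, against 2.80, 2.87 and 3.23 in Col-0, a difference of -0.45 ± 0.16 (limma adjusted p = 0.291). bZIP44 differed there by -0.45 ± 0.18 (limma adjusted p = 0.380). Both groups were apart, and neither difference passed. Under water deficit the differences were -0.06 ± 0.16 for bZIP23 and 0.06 ± 0.18 for bZIP44. bHLH104 had 3.62, 3.54 and 3.66 in tori 35-7 under water deficit, against 3.80, 4.29 and 3.64 in Col-0. On control medium it had 3.71, 3.84 and 3.63 in tori 35-7, against 4.15, 3.83 and 3.88 in Col-0. The groups overlapped on both media, and the averaged difference of -0.26 ± 0.11 did not pass (limma adjusted p = 0.279). Averaged over media, 4 of the 5 bHLH genes were below 0, with a family median of -0.18, and 48.5% of all genes were above 0. The medians were 0.04 for the bZIP and 0.17 for the WRKY genes and -0.01 for all genes.

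Counted over all 30 genes, tori 35-7 lay above Col-0 without overlap under water deficit for 6 (8.61% of all genes) and below for 0 (8.05% of all genes). The 6 were BZIP24, bZIP52, bZIP58, BZIP61, WRKY22 and WRKY47. On control medium 5 lay above (7.86% of all genes) and 4 below (11.4%). Without Col-0 water deficit replicate 1 the counts under water deficit were 10 above (16.1% of all genes) and 2 below (15.2%), and without tori 35-7 control replicate 1 those on control medium were 10 above (14.1%) and 5 below (16.8%). Under water deficit 20 of the 30 differences were above 0, which 47.5% of all genes showed, and 16 were without Col-0 water deficit replicate 1, where 52.0% of all genes were above 0. The sums of green-tissue marker levels given above were also higher in tori 35-7 than in Col-0 on each medium, without overlap. Averaged over media LHCB4.1 and LHCB4.2, proteins of the photosystem antenna, differed by 0.41 and 0.69 (limma adjusted p = 0.0385 and 0.00322), and RCA, the Rubisco activase, and PSAE-1 by -0.25 and 0.32, which did not pass (limma adjusted p = 0.127 and 0.163). FMA was lower in tori 35-7, at -0.59 ± 0.13 (limma adjusted p = 0.0224), while SPCH at 0.09 and MUTE at -0.24 did not pass (limma adjusted p = 0.917 and 0.320). The summed log2 level of these guard cell lineage genes was 12.9 to 13.7 in tori 35-7 under water deficit and 11.3 to 12.9 on control medium, and in Col-0 12.6 to 14.5 under water deficit and 12.6 to 13.6 on control medium. The part of these markers in the genotype differences was not tested.

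Genes linked to these factors differed between genotypes as well. BHLH101 was lower in tori 35-7 under water deficit by 0.99 ± 0.17 on the log2 scale (limma adjusted p = 0.0198), and PYE fell by 0.89 ± 0.18 there (limma adjusted p = 0.0349). The loci AT1G47395 and AT1G47400 were lower too, so 3 of the 4 measured genes of the iron list were lower in tori 35-7 under water deficit. There bHLH34, bHLH104, bHLH115 and bHLH121 gave differences of -0.21, -0.30, -0.14 and 0.08, none past the threshold. On control medium AT1G47395 was also lower, at -0.83 (limma adjusted p = 0.0344). BHLH101, PYE and AT1G47400 differed on that medium by 0.02, -0.35 and -0.43, none past the threshold. The response to water deficit in tori 35-7 minus that in Col-0 was -1.01 for BHLH101, -0.996 for AT1G47400 and -0.296 for AT1G47395. None of these passed (limma adjusted p = 0.707, 0.707 and 0.856). Averaged over media these genes differed by -0.49, -0.92 and -0.98, all past the threshold (limma adjusted p = 0.0438, 0.00149 and 0.000531). NAI1 had the opposite sign. Averaged over media it differed by 0.40 ± 0.10 (limma adjusted p = 0.0390), and PYE by -0.62 ± 0.13 (limma adjusted p = 0.0164). The NAI1 difference was 0.62 on control medium (limma adjusted p = 0.0594) and 0.18 under water deficit (limma adjusted p = 0.647), neither past the threshold. AKINBETA1 is a subunit of the energy-sensing SnRK1 kinase and 1 of 2 low-energy genes measured of 11 listed. It was higher in tori 35-7 under water deficit by 1.15 ± 0.20 (limma adjusted p = 0.0203). On control medium it differed by 0.63 ± 0.20, which did not pass (limma adjusted p = 0.242). Averaged over media AKINBETA1 was higher in tori 35-7 by 0.89 ± 0.14 (limma adjusted p = 0.00434). Its response to water deficit differed between genotypes by 0.52 ± 0.29, which did not pass (limma adjusted p = 0.831). Under water deficit bZIP44 and BZIP53 differed by 0.06 and 0.15. The value of BZIP53 was -0.06 without Col-0 water deficit replicate 1.

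The remaining lists tell what else was measured of the pathways these families are known for. Among 15 genes of abscisic acid and dehydration, 6 were measured and 3 rose averaged over genotypes: COR15A by 2.44, COR15B by 1.37 and KIN2 by 1.36, all encoding small protective proteins of cold and drought. Of 9 flavonoid genes 3 were measured, and DFR rose by 0.62 averaged over genotypes (limma adjusted p = 0.0229), with 0.16 in tori 35-7 (limma adjusted p = 0.908) and 1.07 in Col-0 (limma adjusted p = 0.0163), a difference between genotypes that did not pass (limma adjusted p = 0.763). A single gene was measured for glucosinolate synthesis (UGT74B1), for defence downstream of WRKY factors (PDF1.2) and for senescence (SAG101), and none passed. The listed suberin genes were not analysed here.

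The third question was whether the response to water deficit differed between genotypes. The interaction, the difference in tori 35-7 minus that in Col-0, passed for none of the 30 genes by limma, and 0.00604% of all genes passed. At an unadjusted limma p under 0.05 the count was also 0, where 6.08% of all genes met that limit. It was 0.63 ± 0.35 for BZIP61, 0.65 ± 0.43 for WRKY6, 0.51 ± 0.25 for bZIP44, 0.40 ± 0.22 for bZIP23 and 0.36 ± 0.19 for BZIP24. The 95% interval of BZIP61 ran from -0.12 to 1.39, so a difference of over 2-fold between genotypes was within it. For BZIP34 it was 0.04 ± 0.33 and for WRKY29 0.07 ± 0.19, with intervals of -0.67 to 0.75 and -0.32 to 0.47. The interaction was above 0 for 23 of the 30 genes, where 50.8% of all genes were, and the count was 20 without Col-0 water deficit replicate 1, 20 without tori 35-7 control replicate 1 and 17 without both.

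**Figure D4:**
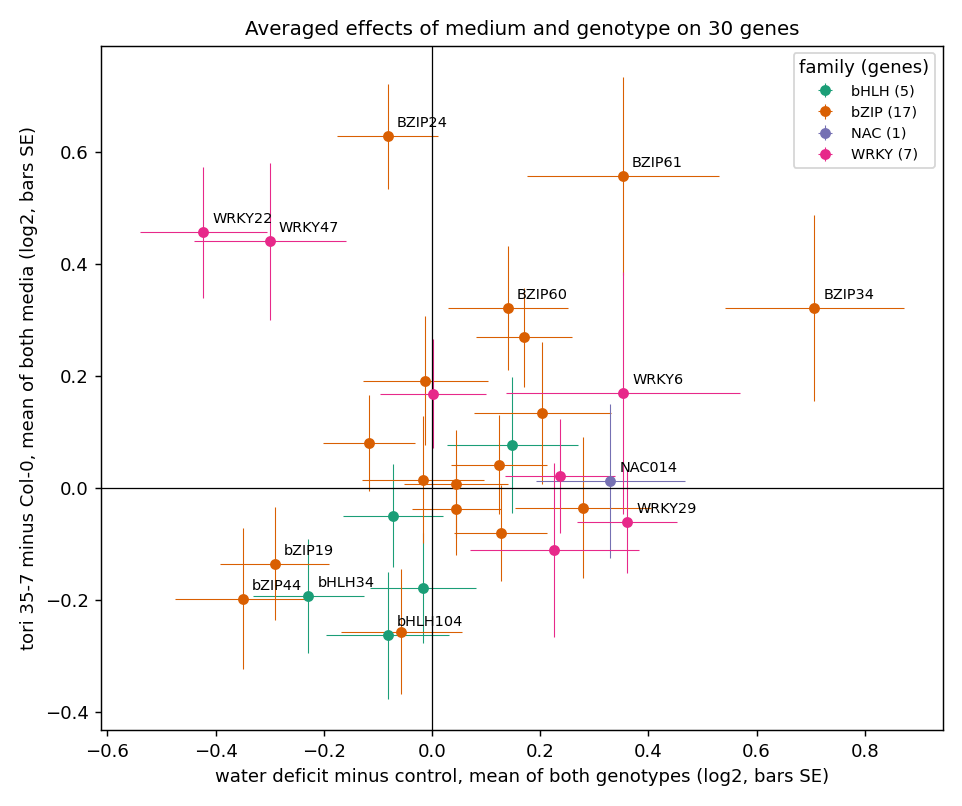
For each of the 30 genes, coloured by family, the difference between water deficit and control averaged over genotypes (log2, horizontal axis) against the difference between tori 35-7 and Col-0 averaged over media (log2, vertical axis), with bars for the SE. BZIP34 stands at the right (0.71), BZIP24 at the top near 0 on the horizontal axis (0.63 and -0.08), and WRKY22 at the upper left (-0.42 and 0.46).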

How the data were processed

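Each of 12 Affymetrix arrays measured RNA of whole seedlings, from 100 ng of RNA. The deposited values, 1 per probe set and array and none missing, run from 1.13 to 13.2. Their scale is unnamed and was read as log2 from that range. The submitters' processing notes name Transcriptome Analysis Console 4.0.1. How background was corrected and arrays were normalized and summarized is not given in the sources used. The number of arrays limits the precision.

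Probe sets were named by the array annotation, updated through RefSeq (TAIR10.1). Of 38408 probe sets, 16722 had 1 gene, 759 several and 20927 are unnamed here, and 3 probe sets of several genes that name a family symbol were left out. RefSeq matched 16505 of the 16548 genes, each represented by its brightest probe set. Sequences were not used here.

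The limma 3.58.1 package in R 4.3.3 (lmFit, contrasts.fit, eBayes) fitted a mean for every group over the 12 arrays, with no covariate, and gave 7 comparisons. Tests are two-sided with Benjamini-Hochberg adjustment over all 16548 genes, and the code was tested on simulated data. The labels do not say whether replicates are separate cultures, so the p-values rest on a spread between samples that may be technical. Same-numbered replicates were not treated as pairs.

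Named were members past the threshold, the 2 with the smallest p per family and comparison, subgroup members, the highest and lowest levels per family, and up to 3 genes per related list. The remaining members were named to account for all 30. Members and lists were chosen with earlier results of these data known. Alternatives were quantile normalization, centring, a filter at the 25th percentile of level, trended robust priors, array weights, a replicate block, all probe sets, and leaving out arrays.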

Additional observations from a re-analysis of the deposited data

How the results depend on the processing

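Among the 210 differences of members, the alternatives that changed signs did so without crossing the threshold: 19 after quantile normalization (none over 0.10 in size), 8 after centring, 33 with array weights and 42 without the 2 arrays of narrowest spread (up to 0.34, BZIP34 between genotypes under water deficit). Numbers of members past the threshold moved as follows. For water deficit averaged over genotypes (2 reported) it was 1 after centring (BZIP34), 1 with trended robust priors (BZIP34), 4 with array weights (BZIP34, BZIP61, WRKY6, WRKY29), 1 with the replicate block (BZIP34), 4 without the 2 arrays of narrowest spread, 0 with all probe sets and 2 after quantile normalization (BZIP34 higher, WRKY22 lower). Leaving out 1 array gave 0 to 4. In tori 35-7 alone (0 reported) it was 3 with array weights and 1 without the 2 arrays, with 0 to 3 on leaving out 1 array. In Col-0 alone (0 reported) it was 1 with array weights and 1 without the 2 arrays, with 0 to 1 on leaving out 1 array. For tori 35-7 against Col-0 averaged over media (1 reported) it was 3 after quantile normalization, 2 after centring, 2 with the filter on dim genes, 4 with array weights and 2 without the 2 arrays, with 1 to 3 on leaving out 1 array. Under water deficit it was 1 in all 8 alternatives, with 0 to 2 on leaving out 1 array. On control medium it was 1 with array weights (BZIP24) and 0 otherwise. The interaction gave 0 throughout. BZIP24 averaged over media passed in all 8 alternatives, BZIP34 in 7 of 8 and WRKY29 in 3 of 8. Of 18 same-numbered pairs of arrays 3 had deviations correlated above 0.1 (range -0.06 to 0.40). All 3 were of Col-0 under water deficit with tori 35-7 on control medium (0.40, 0.26 and 0.18). Pairs with different numbers were not examined, so these correlations do not settle whether the numbers mark pairs. The reported fit did not take the numbers as pairing. The replicate block left BZIP34 past the threshold (limma adjusted p = 0.0139) and WRKY29 short of it (limma adjusted p = 0.0524), and the causes of these shifts were not tested.

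Over all genes tested the count past the threshold ran from 597 to 1128 in the alternatives for water deficit averaged over genotypes (612 reported), from 440 to 1094 for the genotypes averaged over media (476 reported), from 113 to 444 for genotypes under water deficit (136), from 42 to 421 on control medium (94), from 180 to 668 for water deficit in tori 35-7 (192), from 185 to 461 in Col-0 (203) and from 0 to 2 for the interaction (1). On leaving out 1 array it ran from 381 to 928 for water deficit averaged over genotypes, 70 to 387 in tori 35-7 and 72 to 331 in Col-0. For the genotypes it then ran from 246 to 988 averaged over media, 21 to 241 under water deficit and 11 to 233 on control medium. Member counts thus moved while those of all genes moved too, and the 2 were not compared setting by setting. No alternative moved the median difference of all genes by over 0.1. Counts without the 2 arrays of narrowest spread, alone or together, were chosen after seeing the data. With 3 arrays a group, differences near the residual SD may be missed, and the smallest detectable difference was not computed.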
